A study of Homo sapiens with 6 samples.

Results

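Histone genes were examined in MCF10A cells, a non-tumorigenic human mammary epithelial line, after knockdown of FRY, whose large product binds microtubules and NDR kinases. Total RNA from 3 samples of a clone stably transfected with an shRNA against FRY (shFRY) was compared with RNA from 3 samples of a clone stably transfected with a non-targeting shRNA (control). Both clones were selected with puromycin and grown in the same epidermal growth factor medium to 70% confluence, and passage number varied among the samples. The submitters describe FRY in the chosen clone as about 60% below its level in MCF10A. Each construct was represented by 1 clone, so every p-value reflects only how samples of these clones varied, and the effect of the shRNA cannot be told apart from a difference between the clones. Members were the genes whose platform symbol carries a HIST1H to HIST4H name or the current H1-, H2AC, H2BC, H3C or H4C name, measured by probe sets that name 1 gene alone. The rule found 58 such probe sets and 50 genes, of 19775 genes measured on the arrays, and each gene was represented by its probe set with the highest mean. Of the 50 genes, 46 were protein-coding, 3 were pseudogenes by their RefSeq entry (H1-9P, H2AC5P and H4C10P), and H1-10-AS1 is a long noncoding antisense gene that shares only the prefix.

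Core histones H2A, H2B, H3 and H4 form the protein octamer around which DNA is wound in the nucleosome, and the linker histone H1 binds the DNA between nucleosomes. Most genes in this family are replication-dependent: they lie in clusters, have no introns, are transcribed mainly in S phase, and give mRNAs that end in a stem-loop in place of a poly(A) tail. The stem-loop is bound by SLBP, and some of these genes can also give polyadenylated transcripts, chiefly in cells that no longer divide. Whether the array signals came from stem-loop or polyadenylated transcripts was not tested, so no difference below can be assigned to either kind. Because the copies of a class are nearly identical, array probes for one copy can bind the mRNA of another. Probe sets whose names end in _x_at or _s_at are those the array's designers marked as open to such cross-hybridisation, and 13 of the 50 genes were represented by one.

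The deposited values were log2 signals from RMA, a method that corrects, normalises and summarises array probes, and a difference of 1 on this scale is a 2-fold change. The targeted gene was called at 1 of its 4 probe sets. There FRY had log2 signals of 2.88, 3.31 and 3.14 in the shFRY samples, against 4.23, 3.55 and 3.81 in the control samples, a difference of -0.75 (SE 0.19, limma adjusted p = 0.0223, among 23.1% of all probe sets called). The groups did not overlap there (39.2% of all probe sets). The other 3 probe sets had differences of -0.49, -0.32 and -0.49 and did not pass (limma adjusted p = 0.0576, 0.103 and 0.203), and the groups of the last overlapped. FRY was not called at any probe set without control sample 1 or 3 or shFRY sample 1, and was called at 2 without control sample 2. The 9 mammary epithelial markers with a value all had means above the median of all probe sets (3.04). Their signals were summed on the linear scale, so that the brightest genes weigh most. The log2 of that sum was 14.71 to 14.84 in shFRY and 14.18 to 14.25 in control samples. The log2 of the same sum was 7.58 to 7.68 and 8.25 to 8.46 for 8 fibroblast markers. It was 4.90 to 4.94 and 4.94 to 5.48 for 6 immune markers, and 7.56 to 7.85 and 8.02 to 8.07 for 6 endothelial markers. Means above that median were found for 5 of the 8 fibroblast, 1 of the 6 immune and 3 of the 6 endothelial markers. At a limma adjusted p below 0.05, 5 epithelial markers were higher in shFRY and 2 lower. For fibroblast markers the counts were 1 and 3, for immune 0 and 1, and for endothelial 1 and 1 (13.7% and 16.0% of all genes). The widest log2 difference in each list was KRT14 (2.92), LUM (-3.94), PTPRC (-1.06) and KDR (-2.45). RMA gives no value of 0, so no marker was listed at 0. RNA length and amplification affect the beta-actin controls, whose 3' minus 5' log2 difference was 2.87 ± 0.03 in shFRY and 2.52 ± 0.19 in control samples (SD, n = 3 each), with an exact two-sided permutation p = 0.1, the smallest that 3 against 3 samples allow. The same measure for GAPDH was -0.07 ± 0.03 in shFRY and -0.09 ± 0.01 in control samples (SD, n = 3 each), a difference of 0.02 with an exact permutation p = 0.4.

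Histone genes as a family were called about as often as other genes, and they moved in both directions. Of the 50 genes, 10 fell and 5 rose in shFRY cells at a limma adjusted p below 0.05, in all 30% of them, against 29.8% of all genes tested. The share that fell was 20% (16.0% of all genes) and the share that rose was 10% (13.7% of all genes), so neither count set the family apart. Among single genes, H1-1 and H2BC12 fell more than 2-fold, by 3.39-fold and 2.75-fold, and the other 13 called genes differed by 1.27-fold to 1.86-fold. The median log2 difference was -0.17 over the 50 histone genes and 0.03 over all genes. The median histone signal of each sample was 4.82 ± 0.257 in shFRY and 5.00 ± 0.235 in control samples (SD, n = 3 each). These sample medians overlapped between the groups (exact two-sided permutation p = 0.5). The shFRY and control samples did not overlap for 19 histone genes (38%, against 44.2% of all genes): 12 that were lower and 7 that were higher in shFRY, against 22.4% and 21.9% of all genes. All 15 called genes lie on chromosome 6, which holds 42 of the 50 members, and the 14 genes with means no higher than the probe-set median were all uncalled.

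The counts rested partly on single samples. Without control sample 1, 5 genes fell and 3 rose, while 4503 of all genes were called in place of 5889. Every fit that left out 1 sample called fewer of all genes, 4503 to 5766. Without control sample 3 or shFRY sample 2, 6 fell, and without control sample 2 or shFRY sample 3, 3 rose. The 8 genes H1-1, H1-2, H1-3, H1-4, H2AC8, H2BC9, H2BC12 and H2BC14 passed in each of the 6 fits that left out 1 sample. With the beta-actin 3' minus 5' difference as a covariate 1026 of all genes passed in place of 5889, and H2BC12 was the histone gene that passed (-1.24, limma adjusted p = 0.0252). The other 14 kept their direction there, with limma adjusted p-values from 0.123 to 0.665, and 13 of them kept a log2 difference within 1.5 times of that without the covariate. H1-1 was at -1.56 in place of -1.76, H1-4 at 0.77 under both, and H3C7 at 0.39 in place of 0.74. The histone median was -0.14 in place of -0.17.

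**Figure D1:**
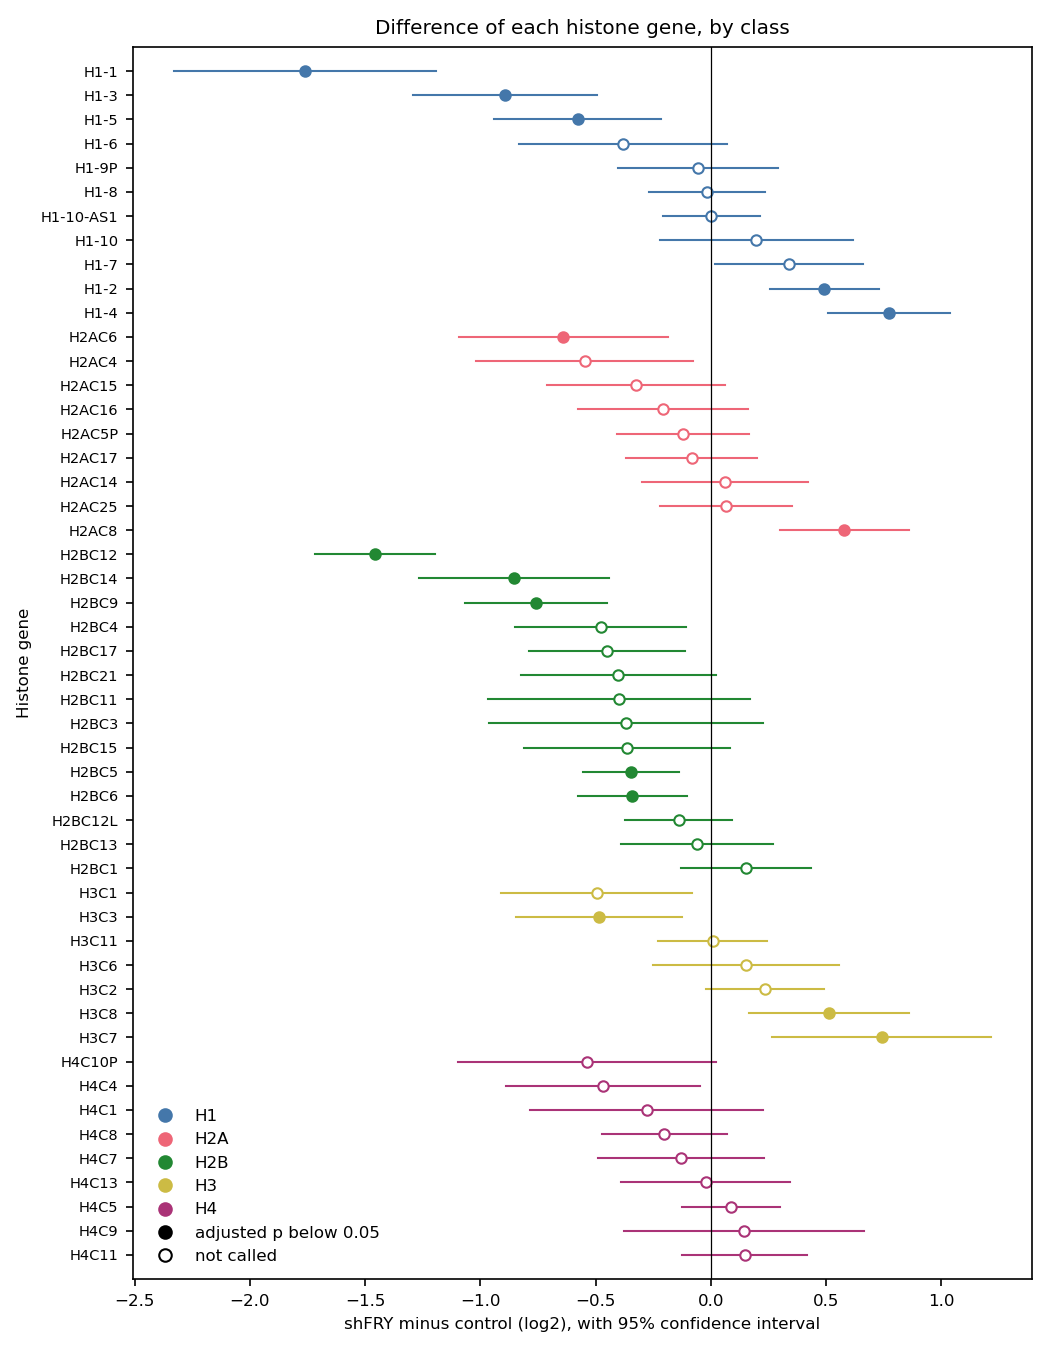
Log2 difference of each of the 50 histone genes, shFRY minus control, with its 95% confidence interval, by class; filled points passed a limma adjusted p of 0.05 (n = 3 each). H1 and H3 genes lie on both sides of 0, 13 of 14 H2B genes lie below it, and no H4 point is filled.

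The promoters of 6 called genes, chosen after their values were seen, are shown because they include the largest falls of the H1 and H2B classes and the risers H1-4 and H2AC8. The sequences are from RefSeq (GRCh38.p14) and give the 130 bases before the transcription start, 5' to 3' on the gene's strand. Capitals mark TATAAA (searched on the gene's strand), CCAAT, the octamer ATTTGCAT, and AAACACA, the last 3 searched on both strands, so that CCAAT can also read ATTGG. None of these motifs contains another.
H2BC12, chr6:27146856-27146985, minus strand: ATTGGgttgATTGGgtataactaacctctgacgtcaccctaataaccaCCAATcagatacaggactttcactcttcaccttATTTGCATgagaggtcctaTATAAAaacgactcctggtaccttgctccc
H2BC14, chr6:27814892-27815021, plus strand: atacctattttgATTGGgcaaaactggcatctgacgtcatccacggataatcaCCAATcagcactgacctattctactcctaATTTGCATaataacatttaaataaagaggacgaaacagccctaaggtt
H2BC9, chr6:26251484-26251613, plus strand: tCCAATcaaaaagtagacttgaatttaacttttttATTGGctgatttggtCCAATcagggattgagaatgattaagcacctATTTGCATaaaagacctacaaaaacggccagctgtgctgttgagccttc
H1-1, chr6:26017788-26017917, minus strand: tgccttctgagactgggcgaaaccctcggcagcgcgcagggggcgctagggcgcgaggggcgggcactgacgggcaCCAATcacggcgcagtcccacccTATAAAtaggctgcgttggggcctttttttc
H1-4, chr6:26156199-26156328, plus strand: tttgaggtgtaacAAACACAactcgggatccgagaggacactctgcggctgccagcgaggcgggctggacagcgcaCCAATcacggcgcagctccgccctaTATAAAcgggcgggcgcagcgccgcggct
H2AC8, chr6:26216791-26216920, plus strand: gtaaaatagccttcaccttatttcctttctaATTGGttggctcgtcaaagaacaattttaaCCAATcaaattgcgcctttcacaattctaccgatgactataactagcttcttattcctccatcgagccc

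In the H2B promoters the octamer, the site of the factor POU2F1 in H2B genes, began 49, 48 and 49 bases before the start of H2BC12, H2BC14 and H2BC9. H1-1 and H1-4, which differed in opposite directions, both had a CCAAT motif beginning 54 bases before the start and a TATAAA motif beginning 31 and 29 bases before it. Both also had AAACACA, beginning 183 and 117 bases before the start, the first of these outside the printed bases. H2AC8 had an octamer beginning 192 bases before its start, also outside them. RefSeq promoters were matched for 43 of the 50 members, all protein-coding, and 250 bases before each start were searched. The octamer was found in 10 of 13 H2B promoters (76.9%) and 6 of 8 H2A promoters (75.0%), against 1.7% of 27305 promoters of all genes. The starts of paired H2A and H2B genes lay 194 to 248 bases apart, so 1 site can be counted for both genes. AAACACA, known as the H1 box, was found in 7 of 9 H1 promoters (77.8%), against 5.0% of all promoters. CCAAT was found in 86.0% of histone promoters and 32.9% of all promoters, and TATAAA in 53.5% and 7.3%. The octamer was in 5 of the 10 promoters of genes that fell, 1 of the 5 of genes that rose and 10 of the 28 of genes that were not called, so these letters were present in each kind.

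Among the linker histone genes, H1-1, H1-3 and H1-5 fell while H1-2 and H1-4 rose, 27.3% and 18.2% of the 11 in the class, against 16.0% and 13.7% of all genes. H1-1 had log2 signals of 7.65, 8.09 and 8.78 in the shFRY samples, against 9.98, 9.93 and 9.91 in the control samples. The groups were separate, and the knockdown samples were spread far more widely than the controls. The difference was -1.76 (SE 0.25, limma adjusted p = 0.00114). H1-3 had 7.55, 7.97 and 8.24 in shFRY, against 8.95, 8.70 and 8.79 in control samples, and it fell by 0.89 (SE 0.17, limma adjusted p = 0.00577). H1-5 had 6.46, 6.77 and 7.04 in shFRY, against 7.40, 7.17 and 7.43 in control samples (difference -0.58, SE 0.16, limma adjusted p = 0.0251). In all 3 of these genes shFRY sample 1 was the lowest and shFRY sample 3 the highest of the knockdown samples. H1-5 no longer passed when control sample 1 (-0.55), control sample 3 (-0.53), shFRY sample 1 (-0.43) or shFRY sample 2 (-0.58) was left out (limma adjusted p up to 0.0849).

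The risers among the linker histones had tight shFRY values. H1-4 had 9.85, 9.71 and 9.76 in shFRY, against 9.10, 8.80 and 9.10 in control samples (difference 0.77, SE 0.12, limma adjusted p = 0.00158). H1-2, one of the histone genes known for polyadenylated transcripts, had 9.87, 9.92 and 9.95 in shFRY, against 9.52, 9.27 and 9.46 in control samples (difference 0.49, SE 0.10, limma adjusted p = 0.00799). The groups of both genes were separate. No other H1 member passed: the testis gene H1-6 differed by -0.38, the male germ-cell gene H1-7 by 0.34, H1-10 by 0.20, the pseudogene H1-9P by -0.05, the oocyte gene H1-8 by -0.02 and the antisense gene H1-10-AS1 by 0.0019. The testis gene H2BC1 also did not pass, at 0.15.

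**Figure D2:**
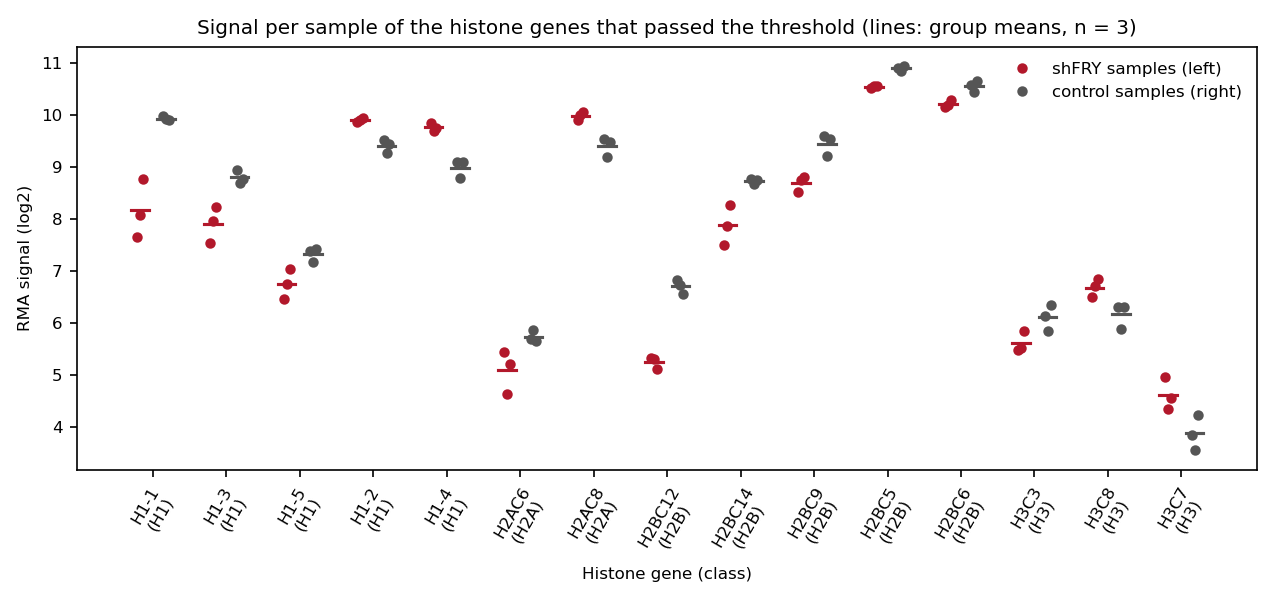
RMA log2 signal of the 15 called histone genes in each shFRY sample (left, red) and each control sample (right, grey), with group means as lines. The groups are separate for 14 genes and overlap slightly at H3C3, where 1 shFRY sample lies just above 1 control sample.

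H2B genes were lower in shFRY cells wherever they were called. Of 14 measured genes, 5 fell and 0 rose, against 16.0% and 13.7% of all genes, and the median log2 difference was -0.38. H2BC12 had log2 signals of 5.33, 5.31 and 5.12 in shFRY, against 6.83, 6.74 and 6.56 in control samples. The gap between the groups was many times the spread within either (difference -1.46, SE 0.11, limma adjusted p = 6.71e-05), and H2BC12 is measured by a probe set without the cross-hybridisation mark. H2BC14 had 7.51, 7.87 and 8.27 in shFRY, against 8.79, 8.67 and 8.75 in control samples (difference -0.85, SE 0.18, limma adjusted p = 0.00801). H2BC9 had 8.52, 8.75 and 8.81 in shFRY, against 9.60, 9.23 and 9.54 in control samples (difference -0.76, SE 0.13, limma adjusted p = 0.00357). These 3 genes carry the octamer promoters printed above.

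The other H2B falls were small. H2BC5 had 10.53, 10.57 and 10.57 in shFRY, against 10.91, 10.85 and 10.95 in control samples (difference -0.35, SE 0.09, limma adjusted p = 0.0212), and its other probe set fell by 0.53. H2BC6 had 10.16, 10.20 and 10.30 in shFRY, against 10.58, 10.45 and 10.66 in control samples (difference -0.34, SE 0.10, limma adjusted p = 0.0375). H2BC5 and H2BC6 no longer passed when control sample 1 (-0.34 and -0.33), control sample 3 (-0.33 and -0.29), shFRY sample 1 (-0.33 and -0.31) or shFRY sample 2 (-0.35 and -0.33) was left out (limma adjusted p up to 0.129). H2BC6 also did not pass with median centring (-0.31, limma adjusted p = 0.0519) or in the fit over all probe sets (limma adjusted p = 0.0548). H2BC5, H2BC6 and H2BC9 are measured by _x_at probe sets, so their values may share signal from other H2B mRNAs and are not independent. Without _x_at and _s_at probe sets 2 H2B genes fell, and without control sample 1 or 3 the count was 3. The members that did not pass were H2BC4 (-0.48, limma adjusted p = 0.0564), H2BC17 (-0.45, 0.0520), H2BC21 (-0.40), H2BC11 (-0.40), H2BC3 (-0.37), H2BC15 (-0.37), H2BC12L on chromosome 21 (-0.14), H2BC13 (-0.06) and H2BC1.

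Among 9 H2A genes 1 rose and 1 fell, 11.1% each way, against 13.7% and 16.0% of all genes. H2AC8 had log2 signals of 9.91, 10.00 and 10.07 in shFRY, against 9.55, 9.20 and 9.50 in control samples, with no overlap (difference 0.58, SE 0.12, limma adjusted p = 0.00801). H2AC6 had 5.46, 4.64 and 5.22 in shFRY, against 5.71, 5.86 and 5.66 in control samples (difference -0.64, SE 0.20, limma adjusted p = 0.0414). The call of H2AC6, an _s_at probe set, was lost without control sample 1 (-0.66), 2 (-0.58) or 3 (-0.68), without shFRY sample 2 (-0.40) or 3 (-0.70), with median centring (-0.61, limma adjusted p = 0.0502) and with quantile normalization once more (-0.57). H2AC4 was at -0.55 with overlapping groups (limma adjusted p = 0.0813). H2AC15 (-0.32), H2AC16 (-0.21), the pseudogene H2AC5P (-0.12), H2AC17 (-0.08), H2AC25 (0.07) and H2AC14 (0.06) did not pass. For H2AC25, on chromosome 1, the probe sets differed: the one that represents it, an _x_at probe set, was at 0.07, while the other had 6.16, 6.09 and 6.45 in shFRY, against 5.91, 5.52 and 5.53 in control samples, and rose by 0.58 (limma adjusted p = 0.0261 over all probe sets).

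Of 7 H3 genes, 2 rose and 1 fell (28.6% and 14.3%, against 13.7% and 16.0% of all genes). H3C7 had 4.96, 4.35 and 4.56 in shFRY, against 3.86, 3.56 and 4.24 in control samples (difference 0.74, SE 0.21, limma adjusted p = 0.0279). H3C8 had 6.50, 6.72 and 6.84 in shFRY, against 6.32, 5.88 and 6.32 in control samples (difference 0.51, SE 0.15, limma adjusted p = 0.0346), at an _x_at probe set. H3C3 had 5.50, 5.53 and 5.86 in shFRY, against 6.15, 5.85 and 6.35 in control samples (difference -0.49, SE 0.16, limma adjusted p = 0.0491). Its groups overlapped slightly, with shFRY sample 3 just above control sample 2. None of the 3 calls was firm. H3C7 was lost without control sample 1 (0.73) or 2 (0.58) or shFRY sample 1 (0.57) or 3 (0.77), and with the beta-actin covariate it was at 0.39. H3C8 was lost without control sample 1 (0.59) or 2 (0.37) or shFRY sample 2 (0.50) or 3 (0.44). H3C3 was lost without control sample 1 (-0.47) or 3 (-0.37) or shFRY sample 1 (-0.42) or 2 (-0.44), with median centring (-0.46), with quantile normalization once more (-0.44) and without _x_at and _s_at probe sets (limma adjusted p = 0.0541, with fewer genes tested). H3C1 (-0.50), H3C2 (0.23), H3C6 (0.15) and H3C11 (0.01) did not pass.

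In the fit on group alone, no H4 gene was called. The smallest p-values belonged to H4C4, which had 3.07, 3.73 and 3.67 in shFRY, against 4.12, 3.81 and 3.94 in control samples (difference -0.47, limma adjusted p = 0.0927), and to the pseudogene H4C10P (-0.54, limma adjusted p = 0.140). H4C5, with the highest mean of the class, had 12.54, 12.62 and 12.56 in shFRY, against 12.52, 12.43 and 12.51 in control samples, and the 95% confidence interval of its difference (0.09) ran from -0.12 to 0.30. Its shFRY samples were all above its control samples, yet the difference did not pass. H4C1 (-0.28), H4C8 (-0.20), H4C11 (0.15), H4C9 (0.14), H4C7 (-0.13) and H4C13 (-0.02) completed the class.

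**Figure D3:**
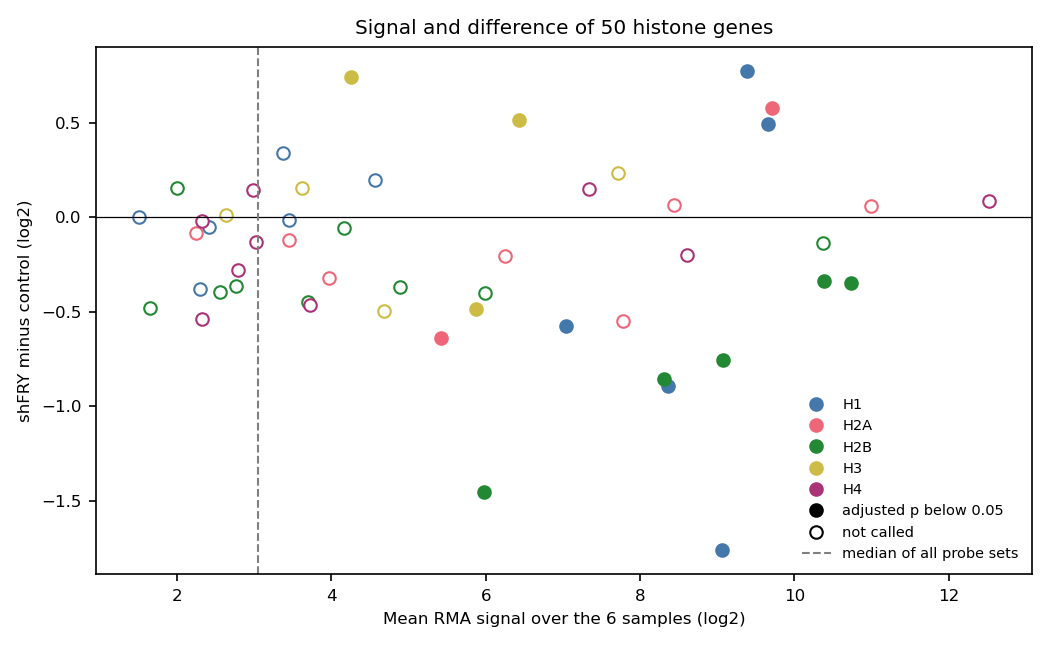
Mean log2 signal over the 6 samples (x axis) and log2 difference, shFRY minus control (y axis), of the 50 histone genes, coloured by class and filled where the limma adjusted p was below 0.05. The 14 genes left of the dashed median of all probe sets (3.04) are all unfilled.

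Called genes next to each other on chromosome 6 did not all differ in the same direction. H3C7, which rose, and H2BC9, which fell, start 979 bases apart on opposite strands, at 0.74 and -0.76. H3C8, the next member along the chromosome, rose (0.51). The calls of H3C7 and H3C8 were lost in most fits that left out 1 sample, and H2BC9 and H3C8 are measured by _x_at probe sets. Many H2A and H2B genes face away from each other across a shared promoter, and 12 pairs of histone genes on opposite strands had starts within 1000 bases. Both genes were measured in 5 of these pairs. In H2AC6 and H2BC4 both values were below 0 (-0.64, called, and -0.48, not called). In H2AC14 and H2BC14, whose starts lie 245 bases apart, H2BC14 fell (-0.85) and H2AC14 was at 0.06, measured by an _x_at probe set. H2AC15 and H2BC15 were at -0.32 and -0.37, and H2AC17 and H2BC17 at -0.08 and -0.45, none of them called. H2BC4, H2BC15 and H2AC17 had means below the median of all probe sets, so their pairs show little. The differences within pairs were not tested.

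**Figure D4:**
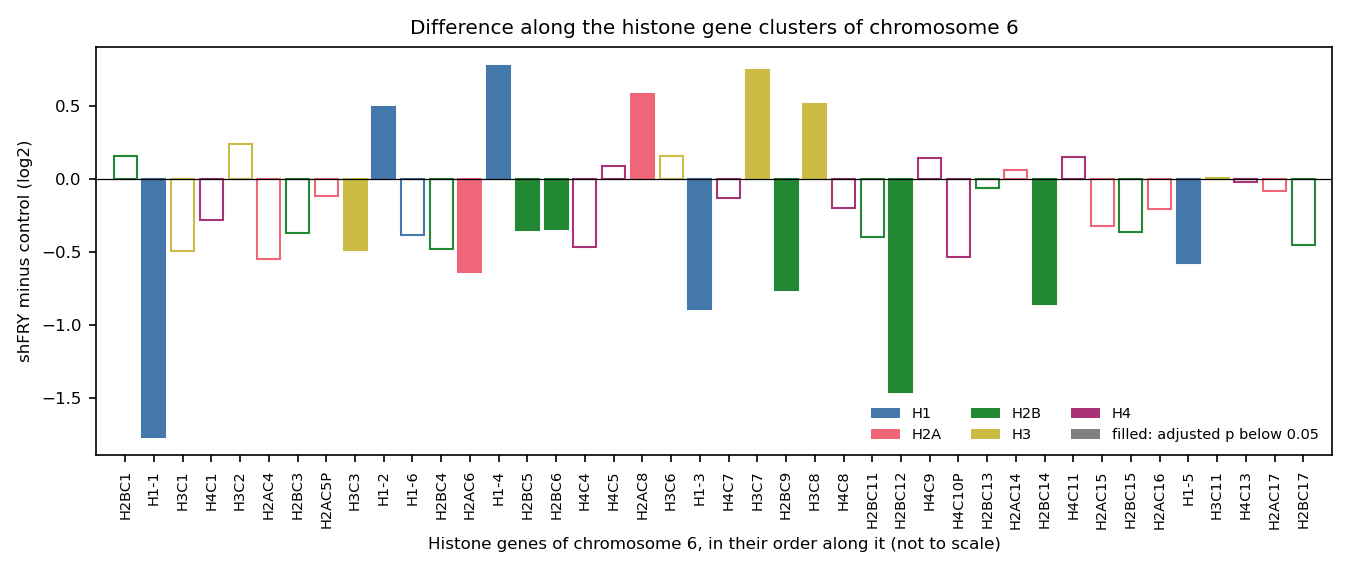
Log2 difference, shFRY minus control, of the 42 histone genes of chromosome 6 in their order along it, coloured by class; filled bars passed a limma adjusted p of 0.05 (n = 3 each). Filled bars above and below 0 occur side by side along the chromosome, as where H3C7 (0.74) stands beside H2BC9 (-0.76).

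Variants and chaperones of histones that were called were mostly lower. Of 9 measured replication-independent variants, which are made outside S phase as well, 5 fell (55.6%, against 16.0% of all genes) and 0 rose (13.7% of all genes), with a median of -0.40. All genes measured here and in the processing, chaperone, S phase and cell cycle exit lists had means above the probe-set median. Of all genes above that median, 24.9% fell and 19.3% rose. H2AX, the variant phosphorylated at DNA breaks, had 7.35, 7.58 and 7.87 in shFRY, against 9.20, 9.03 and 9.17 in control samples (difference -1.53, SE 0.14, limma adjusted p = 0.000152), and was at -0.88 with the mean of its probe sets. H2AZ1 (-0.74), H2AZ2 (-0.55), MACROH2A2 (-0.45) and, chosen after its value was seen, H3-3A (-0.40) were the others. H2AZ2 was at -0.86 without _x_at and _s_at probe sets. MACROH2A2 did not pass without control sample 1 (-0.39) or 3 (-0.43) or shFRY sample 2 (-0.37). The variant list also holds H1-10, a member by its name. Of 19 genes of histone gene transcription and mRNA processing, 3 fell and 2 rose (15.8% and 10.5%). The shares were 16.0% and 13.7% of all genes, and 24.9% and 19.3% of all genes above the probe-set median. SLBP, which binds the stem-loop of histone mRNAs, had 7.02, 7.19 and 7.22 in shFRY, against 8.21, 8.18 and 7.96 in control samples (difference -0.97, SE 0.11, limma adjusted p = 0.000426). SRRT, a partner of the cap-binding complex, fell by 1.01, and LSM11 of the U7 particle that cuts histone mRNAs fell by 0.50. TUT7, which adds uridines to mRNAs, rose (0.36), as did the exonuclease gene ERI1 (0.33), chosen after its value was seen. LSM11 did not pass with the mean of its probe sets (-0.23), with median centring (-0.47), or without control sample 2 (-0.38) or 3 (-0.45) or shFRY sample 1 (-0.48) or 2 (-0.46). TUT7 did not pass with quantile normalization once more (0.32), or without control sample 1 (0.32) or 3 (0.33) or shFRY sample 1 (0.33) or 2 (0.33).

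Of 22 histone chaperone and deposition genes, 10 fell and 2 rose (45.5% and 9.09%), against 16.0% and 13.7% of all genes (median -0.30). ASF1B, a chaperone of new H3 and H4 in dividing cells, had 4.74, 5.05 and 5.79 in shFRY, against 7.16, 6.91 and 7.08 in control samples (difference -1.86, SE 0.24, limma adjusted p = 0.000802). MCM2, a helicase subunit that also binds histones, fell by 1.60, the H1 and H3 chaperone gene NASP by 0.81, and CHAF1A of chromatin assembly factor 1 by 0.73 (-1.22 without _x_at and _s_at probe sets). The genes that rose, named after their values were seen, were the ASF1B paralog ASF1A (0.54) and ATRX (0.48). Of 20 S phase regulators 18 fell (90%, against 16.0% of all genes) and 0 rose (median -1.33), among them CCNE2 (-3.88), CCNE1 (-2.80), PCNA (-1.77) and CDT1 (-1.70). With the mean of probe sets CCNE1 was at -1.43 and CDT1 at -0.90. Of 10 genes of cell cycle exit, 3 rose (30%, against 13.7% of all genes) and 0 fell: GADD45A (2.23), BTG1 (1.05) and CDKN1A (0.78), with BTG1 at 0.20 and not called without _x_at and _s_at probe sets. The median log2 difference of the S phase list was thus farther from 0 than that of the histone genes (-0.17), and this contrast was not tested. The beta-actin measure given above also differed between the same groups (0.35).

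Of the 6 histone genes known for polyadenylated transcripts 3 fell (H2BC12, H2AC6 and H2BC5) and 1 rose (H1-2), while H2BC4 and H2BC21 did not pass. These are 50% and 16.7% of the list, against 16.0% and 13.7% of all genes, and the calls of H2AC6 and H2BC5 were lost in most fits that left out 1 sample, as given above. None of the 3 measured histone genes known for expression in testis passed, with differences from -0.38 to 0.15.

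**Figure D5:**
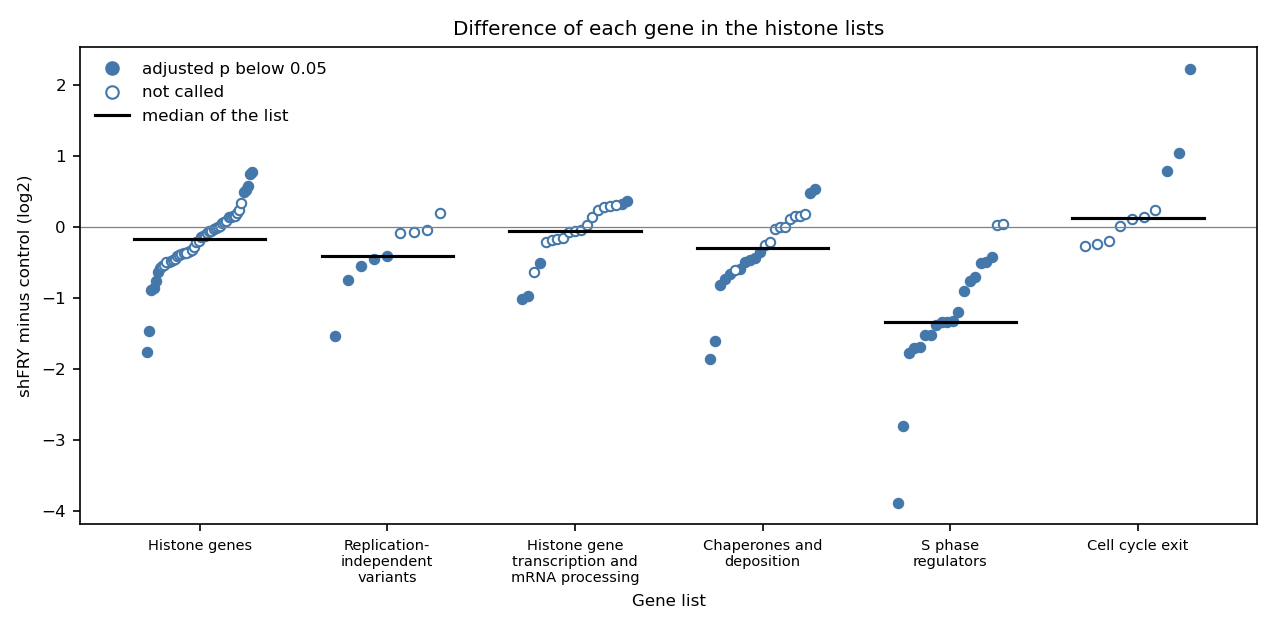
Log2 difference, shFRY minus control, of each gene (points, filled where the limma adjusted p was below 0.05) in the histone genes and in 5 lists around them, with list medians as black lines. Medians lie at -0.17 for histone genes, -0.40 for replication-independent variants, -0.05 for transcription and mRNA processing, -0.30 for chaperones, -1.33 for S phase regulators and 0.13 for cell cycle exit.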

How the data were processed

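The deposited values were log2 signals that the authors made with RMA, per the submitters' processing notes; no version or settings are named there. They cover 54675 probe sets on 1-colour arrays, 1 sample per array, and were used as deposited; the number of arrays limits the precision. Of the probe sets other than 62 controls, 41091 named 1 gene in the platform annotation, 1801 several and 11721 none; symbols were updated through Entrez IDs to RefSeq genes of GRCh38.p14 (41037 matched). The probe set with the highest mean stood for each of 19775 genes. Groups, taken from the sample titles, were fitted in limma 3.58.1 (R 4.3.3; shFRY minus control, lmFit and eBayes, no filter, Benjamini-Hochberg over all genes, threshold 0.05), after a test on simulated data. FRY and single probe sets were fitted over the 54613 probe sets other than controls. Named genes are, per class, up to 6 called genes with the largest difference (or 2 with the smallest p) and the one with the highest mean; per list, up to 4. The members and lists were chosen with earlier results of these data known. Within groups, arrays had Pearson correlations over probe sets of 0.992 to 0.995.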

Additional observations from a re-analysis of the deposited data

How the results depend on the processing

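The alternatives were median centring, quantile normalization once more, trend and robust eBayes, probe sets above the median mean alone, averaged probe sets per gene, no _x_at or _s_at probe sets, array weights, the replicate block, the beta-actin covariate (first chosen by an earlier analysis after seeing these data) and leaving out each sample; counts for H2B were added after seeing the data. None of the 15 called histone genes changed direction where it could be tested (10 of them without _x_at and _s_at probe sets). All 15 passed with trend and robust eBayes, the filter on the median, averaged probe sets and array weights. In the fit over all probe sets H2AC6, H2BC6 and H3C3 did not pass (limma adjusted p = 0.0508, 0.0548 and 0.0621). Leaving out 1 sample gave 4503 to 5766 called genes, 3 to 5 histone genes higher, 5 to 12 lower, 3 to 7 H2B genes lower, a histone median of -0.23 to -0.11 and 0 to 2 FRY probe sets. Without _x_at and _s_at probe sets 39 histone genes remained to be tested, 5 were called lower, 2 of them H2B, and ITGB4, a marker of the epithelium, was at -0.18 in place of 1.16. With the beta-actin covariate 1026 genes, 0 histone genes higher, 1 histone gene lower (also the 1 H2B gene) and 0 FRY probe sets passed, and the uncalled H4C10P and H1-6 were at 0.0214 and 0.0168; 13 of the 14 histone genes lost there kept a log2 difference within 1.5 times (H1-2 0.56 in place of 0.49, H2BC14 -0.74 in place of -0.85), and the histone median was -0.14; the cause was not tested. Array weights gave 2 FRY probe sets. With the replicate block 2 FRY probe sets and 3 H2B genes passed, and 9 histone genes were lower and 5 higher. The pseudogene H4C10P was among those lower (-0.54, limma adjusted p = 0.0152). Same-numbered samples did not deviate together across all genes (r = -0.0002, -0.0024 and 0.0068), so the numbers are not taken as pairs. The median histone signal was lowest in sample 2 of both groups, at 4.53 in shFRY and 4.73 in control. Sample 2 was lowest in both groups for 14% of histone genes, against 11.7% of all genes. The uncalled H2AC14 ranged from -0.0828 to 0.15 when 1 sample was left out. With 4 residual degrees of freedom and dim signals in 14 of the 50 genes, small changes could be missed.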

Other observations

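A further 20 probe sets name several histone genes and were left out of the gene-level comparison; no gene is named from them. In the fit over all probe sets 1 of the 20 was called, against 23.1% of all probe sets. It names 5 H2B genes and had 9.06, 9.31 and 9.38 in shFRY, against 9.70, 9.51 and 9.84 in control samples (log2 difference -0.44, limma adjusted p = 0.0483). Of the 5 probe sets that name H2B genes alone, 4 had a difference below 0, the widest (-0.56) at group means of 2.20 and 2.75. In the gene-level comparison 9168 of all 19775 genes were below 0. The 5 that name H2A genes alone ran from -0.48 to 0.45, and the 2 that name H2A and H3 genes were at -0.21 and 0.28. Those at 0.45 and 0.28 had all shFRY samples above all control samples, but no H2A probe set here was called. The 6 shared H4 probe sets gave differences of both signs, the brightest of them 0.30 (limma adjusted p = 0.0962, n = 3 each) with all shFRY samples above all control samples, and another -0.57 (limma adjusted p = 0.0608) with all shFRY samples below them. The 2 shared H3 probe sets were at -0.83 and 0.37, neither called.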
